A study of Homo sapiens with 12 samples.

Results

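The lung and endoderm lineage genes examined here are 8 transcription factors, NKX2-1, FOXA1, FOXA2, GATA6, HNF4A, SOX9, KLF5 and ELF3, and the aspartic protease gene NAPSA. They were chosen by name, and each was found through its Ensembl identifier. All 9 were in the table, which held 12584 complete genes, ended in an incomplete entry and may lack part of the genes counted. Shares of all genes, library totals and CPM here refer to the genes in the table.

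RNA-seq libraries came from A549 and PC9, both lung adenocarcinoma cell lines, after stable delivery of a lentiviral vector and neomycin selection. Each line had cells with the pCDH vector for the homeobox factor HOXC6 (A549-HOXC6, PC9-HOXC6) and control cells with the empty vector pCDH-NEO (A549-NEO, PC9-NEO), and each of the 4 groups had 3 libraries. The lentivirus and the selection were thus shared by every group. The labels call the libraries independent replicates without naming separate cultures, so p-values measure the spread between these libraries, which may be technical. HOXC6 itself had no entry in the count table, so the labels could not be checked on it here. The study assessed its overexpression by qRT-PCR and Western blot, and lists HOXC6 among the genes higher in both lines.

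Lineage factors bind the control regions of genes that give a tissue its identity. In the developing foregut, FOXA1 and FOXA2 are forkhead pioneer factors that open chromatin, NKX2-1 (also called TTF-1) specifies the lung, GATA6 acts in lung and gut endoderm, and SOX9 marks distal lung progenitors. HNF4A is a nuclear receptor of liver and gut epithelium, KLF5 and ELF3 (an ETS factor) are widespread in epithelia, and NAPSA encodes napsin A, a protease of alveolar type 2 cells that pathologists stain together with NKX2-1 to identify lung adenocarcinoma.

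On GRCh37, the annotation places NKX2-1 (ENSG00000136352) on chromosome 14 from 36985597 to 36990354, FOXA1 (ENSG00000129514) on chromosome 14 from 38058757 to 38065264, and FOXA2 (ENSG00000125798) on chromosome 20 from 22561636 to 22566093, each on the reverse strand. GATA6 (ENSG00000141448) lies on chromosome 18 from 19749550 to 19782491, HNF4A (ENSG00000101076) on chromosome 20 from 42984339 to 43061485, and SOX9 (ENSG00000125398) on chromosome 17 from 70117161 to 70122557, each on the forward strand. KLF5 (ENSG00000102554) lies on chromosome 13 from 73629114 to 73651679 and ELF3 (ENSG00000163435) on chromosome 1 from 201977073 to 201986311, both forward, and NAPSA (ENSG00000131400) on chromosome 19 from 50861729 to 50869087, reverse. Exons of FOXA2, SOX9 and KLF5 overlapped no other annotated gene. Of the 3165 exonic bases of NKX2-1, 1033 are shared on the same strand with SFTA3 and 402 lie opposite NKX2-1-AS1. Of the 3586 of NAPSA, 1182 lie opposite NR1H2. ELF3 shares 664 of its 7186 exonic bases with ELF3-AS1 and another gene model, and the overlaps of GATA6 (415 bases), HNF4A (84) and FOXA1 (16) were smaller. The libraries were stranded, but the strand setting of the counting is not given in the sources used here, so reads of such shared exons could not be assigned.

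Promoter windows were available from RefSeq (GRCh38.p14) for 7 of the 9 genes, and FOXA2 and SOX9 had none. Each of the 11 windows runs from 250 bases before to 50 bases after a transcription start, and each matched GRCh37 exactly once. The windows of FOXA1 and ELF3 are shown because these genes differed between the cell lines in their response to HOXC6, and those of HNF4A because it was counted in A549 and at the floor in PC9. Capitals mark every match, on either strand, to the motifs searched: TGATTNAT for HOX with PBX, TGTTTNC for forkhead factors, AGATAA for GATA, CAAAGTNCA for HNF4, CAAGTG for NKX2-1, ACAATG for SOX, GGGTGTGG for KLF, and AGGAAG for ETS factors such as ELF3.
FOXA1, chr14:38064405-38064704, reverse strand: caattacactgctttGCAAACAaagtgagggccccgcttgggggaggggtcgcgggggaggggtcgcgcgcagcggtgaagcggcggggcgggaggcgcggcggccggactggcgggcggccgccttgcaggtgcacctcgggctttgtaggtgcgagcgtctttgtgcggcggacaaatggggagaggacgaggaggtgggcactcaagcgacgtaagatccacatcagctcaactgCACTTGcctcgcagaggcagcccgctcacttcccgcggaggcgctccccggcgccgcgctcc
HNF4A, upstream start, chr20:42984089-42984388, forward strand: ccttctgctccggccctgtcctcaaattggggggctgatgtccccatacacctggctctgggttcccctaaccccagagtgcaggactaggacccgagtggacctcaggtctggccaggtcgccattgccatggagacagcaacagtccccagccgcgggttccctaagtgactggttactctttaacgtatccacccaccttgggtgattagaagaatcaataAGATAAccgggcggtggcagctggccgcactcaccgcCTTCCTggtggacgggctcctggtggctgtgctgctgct
HNF4A, downstream start, chr20:43029629-43029928, forward strand: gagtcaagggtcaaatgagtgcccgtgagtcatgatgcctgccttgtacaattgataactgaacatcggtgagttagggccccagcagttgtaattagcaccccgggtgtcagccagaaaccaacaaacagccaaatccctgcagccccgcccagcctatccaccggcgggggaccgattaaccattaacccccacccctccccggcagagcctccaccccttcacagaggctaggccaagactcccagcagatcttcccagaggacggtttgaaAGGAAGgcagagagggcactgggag
ELF3, chr1:201979465-201979764, forward strand: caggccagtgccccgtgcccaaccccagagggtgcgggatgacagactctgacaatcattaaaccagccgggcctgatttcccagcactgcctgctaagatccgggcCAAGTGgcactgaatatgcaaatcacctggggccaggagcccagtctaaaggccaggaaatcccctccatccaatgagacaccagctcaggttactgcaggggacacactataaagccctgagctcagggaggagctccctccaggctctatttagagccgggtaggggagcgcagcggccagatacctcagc

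The FOXA1 window held a forkhead match at -235 and an NKX2-1 match at -12, counted from the start. The upstream HNF4A window held a GATA match at -26 and an ETS match at 12, the downstream one an ETS match at 26, and the ELF3 window an NKX2-1 match at -143. No matches overlapped each other. The NKX2-1 letters were present in 5 of the 11 windows, against 11.5% of 35116 RefSeq promoters of the same length. Forkhead letters occurred in 3 windows (18% of all promoters), GATA in 2 (10.3%), ETS in 2 (33.6%), SOX in 1 (10.8%), and the letters for HOX with PBX in 1 window, a KLF5 start (2.82%). HNF4 and KLF letters were in none, and are in 1.1% and 3.28% of all promoters. Such letters are a description of the windows and were not tested for binding.

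Levels are given as CPM, read counts per 1e6 counts after TMM scaling over the 12 libraries. The libraries held between 1212053 and 3286577 counts over the genes in the table, and 3 counts, taken as the floor of detection, corresponded to 0.915 to 2.57 CPM. This floor covers counting error only. A549-HOXC6 replicate 3 stood apart, with 11195 genes counted against 9714 to 10331 in the other 11 libraries, and its values are therefore given separately where they matter. Since these are bulk libraries, fewer cells of a type and less RNA per cell cannot be told apart.

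The lineage state of the lines was compared in cells with the empty vector (PC9-NEO against A549-NEO). The study kept A549 in RPMI and PC9 in DMEM, so line and medium cannot be told apart here. FOXA1 was 9.19-fold higher in PC9, whereas FOXA2 and HNF4A were readily counted in A549 and at the floor in PC9. SOX9 and KLF5 were also higher in PC9, and ELF3 was slightly higher in A549. Of 7 lineage genes tested, 4 were higher in PC9, where 35.7% of 9076 genes were, and 3 were lower, where 36.9% of all genes were. Past a log2 fold change of 1 there were 2 higher, against 16.4% of all genes, and 2 lower, against 19.6%. The 2 lower genes were FOXA2 and HNF4A, which entered the test through A549-NEO alone. These shares of the lineage genes are therefore read against a background in which most genes differed between the lines.

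FOXA1 stood at 205, 230 and 212 CPM in the PC9-NEO libraries and at 17.0, 26.1 and 25.9 CPM in A549-NEO. The groups did not overlap, and the log2 fold change was 3.20 (SE 0.12, adjusted p = 2.01e-23 by edgeR's quasi-likelihood test). Its paralog FOXA2 showed the opposite distribution, with 330, 258 and 278 counts in A549-NEO, or 109 ± 5.42 CPM (SD, n = 3), and with 3, 0 and 1 counts in PC9-NEO. Measured against 3 counts in the shallowest PC9-NEO library (1.62 CPM), FOXA2 was at least 67.3-fold higher in A549. Each line thus held 1 of these 2 paralogs as the more abundant, FOXA1 in PC9 and FOXA2 in A549.

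HNF4A followed FOXA2. The A549-NEO libraries held 70, 57 and 63 counts (24.0 ± 0.963 CPM, SD, n = 3) against 0, 1 and 3 in PC9-NEO, which makes it at least 14.8-fold higher in A549. Both genes entered edgeR's test through their A549-NEO counts alone and passed it (adjusted p = 3.27e-23 for FOXA2 and 4.14e-13 for HNF4A). Their difference is therefore read from the counts and not from these p-values. A minimum of 10 counts in every library removes both genes from the test, leaving ELF3 as the lower call.

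SOX9 measured 97.3, 97.7 and 101 CPM in PC9-NEO and 35.7, 31.3 and 32.2 CPM in A549-NEO, with a log2 fold change of 1.53 (SE 0.12, adjusted p = 1.03e-13). KLF5 differed less, at 112 ± 5.08 CPM in PC9-NEO and 80.0 ± 0.546 CPM in A549-NEO (SD, n = 3, log2 fold change 0.44, SE 0.10, adjusted p = 1.63e-04). ELF3 went the other way, at 299 ± 37.4 CPM in PC9-NEO and 377 ± 38.3 CPM in A549-NEO (log2 fold change -0.37, SE 0.08, adjusted p = 8.44e-05). The lines did not overlap in SOX9, KLF5 or ELF3, although for ELF3 the highest PC9-NEO library and the lowest A549-NEO library both stood at 336 CPM. This describes each gene, in a comparison where most genes differed.

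GATA6 was low in both lines, at 20.0, 17.6 and 14.8 CPM in PC9-NEO and 9.37, 12.5 and 12.97 CPM in A549-NEO. The groups stood close without overlapping, and the log2 fold change of 0.55 (SE 0.25) passed with an adjusted p of 0.0466. With each of the 6 libraries left out in turn it passed only without PC9-NEO replicate 3, and the adjusted p ran from 0.0324 to 0.203. Of 10 other settings 6 kept the call, and it was lost with DESeq2 (adjusted p = 0.142), no filter on low counts (0.0575), at least 10 counts in every library (0.0546) and the replicate block (0.0668).

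NKX2-1, the lung-specifying factor, was practically uncounted. Both A549 groups gave 0, 0 and 1 counts, and the PC9-NEO libraries gave 0, 4 and 0. NAPSA, expressed in alveolar type 2 cells, gave 11, 11 and 12 counts in the A549-NEO libraries, above the 4, 3 and 6 counts of PC9-NEO. Neither passed the filter on low counts in this comparison. Without that filter the log2 fold change of NAPSA was -1.07 (adjusted p = 0.0934), although its groups did not overlap.

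**Figure D1:**
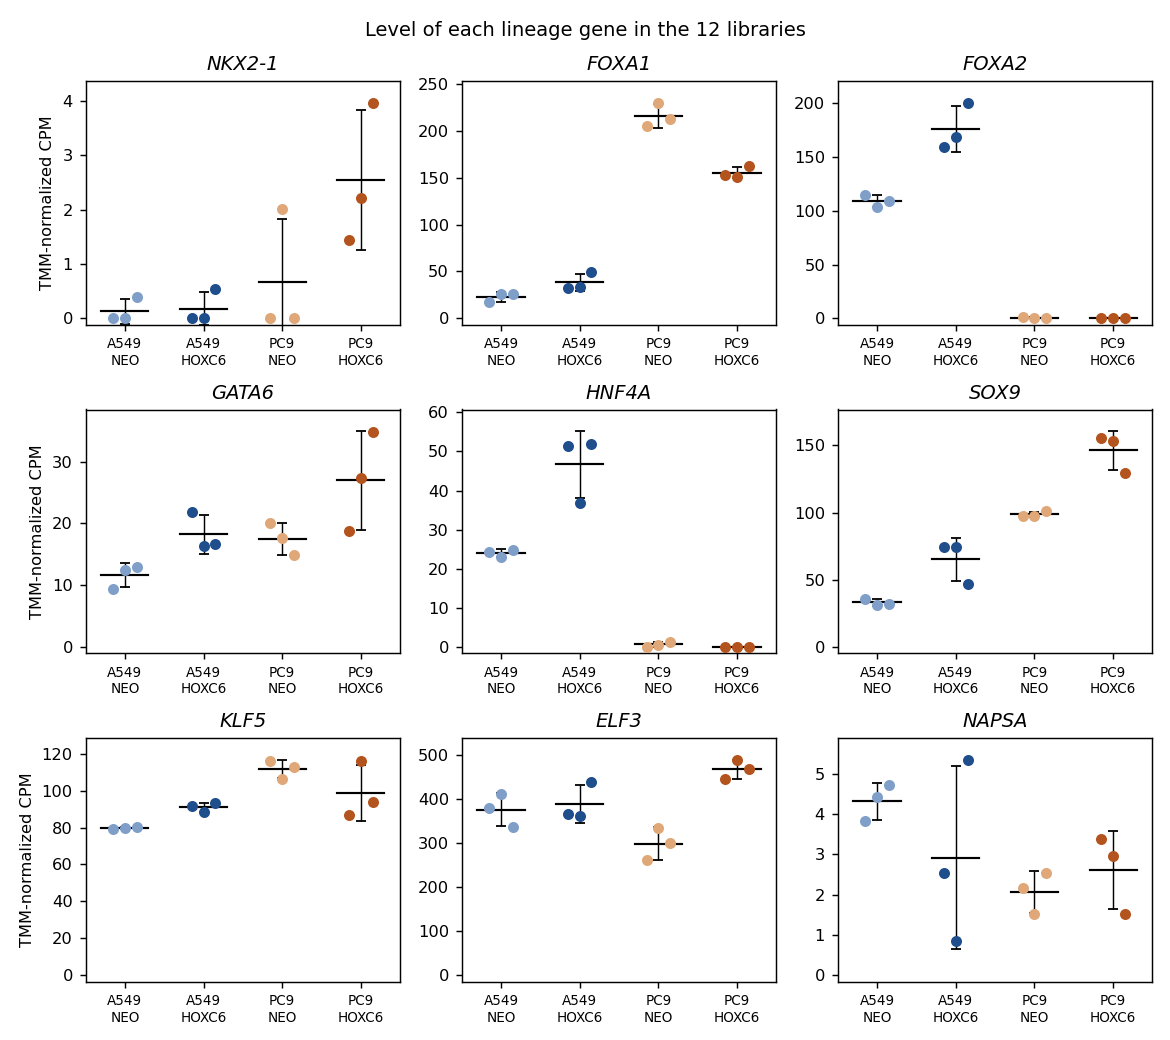
Level of each lineage gene in TMM-normalized CPM (vertical axes, each from 0) in the 4 groups, with 1 point per library and bars for the mean and SD of 3 libraries. FOXA2 and HNF4A were near 0 in all 6 PC9 libraries, and FOXA1 stood between 151 and 230 CPM in them but between 17.0 and 49.2 CPM in the A549 libraries.

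Divided by transcript length, ELF3, KLF5 and SOX9 held the same places in both lines with the empty vector, and the other genes differed in place. ELF3 led in every group, from 96.3 CPM per kb in PC9-NEO to 151 CPM per kb in PC9-HOXC6, and lay between the 94.0 and 96.2 percentiles of all genes. In A549-NEO it was followed by FOXA2 (43.0 CPM per kb), KLF5 (23.9), SOX9 (8.42), FOXA1 (6.56), HNF4A (5.16), GATA6 (3.20) and NAPSA (3.18), with NKX2-1 last at 0.0598 CPM per kb. FOXA1 and HNF4A were not separated there, nor were GATA6 and NAPSA, since their libraries overlapped. In PC9-NEO, ELF3 was followed by FOXA1 (61.5 CPM per kb), KLF5 (33.4), SOX9 (25.1), GATA6 (4.83) and NAPSA (1.53), and NKX2-1, FOXA2 and HNF4A shared the last places at 0.306, 0.269 and 0.127 CPM per kb without being separated from each other. With HOXC6, the order in A549 was kept, with SOX9 at 16.6, FOXA1 at 10.9 and HNF4A at 10.05 CPM per kb. There the libraries of FOXA1 overlapped those of SOX9 and those of HNF4A, while SOX9 and HNF4A did not overlap each other. In PC9-HOXC6, SOX9 at 37.2 stood above KLF5 at 29.5 CPM per kb, but their libraries overlapped.

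Further genes of the lung and endoderm programs were also compared between the lines. Of 39 other lung and endoderm factors, 28 were in the table and 15 could be tested, with 7 higher in PC9, 5 higher in A549 and 3 that did not pass. Genes of this and the later lists that were missing from the table are not read as unexpressed. Of all genes tested, 35.7% were higher in PC9 and 36.9% higher in A549. GRHL2, a grainyhead factor of epithelial cells, had 0 counts in all A549-NEO libraries and a level of 159 ± 17.3 CPM (SD, n = 3) in PC9-NEO, at least 132-fold higher in PC9. The ETS factor EHF (104 ± 12.7 CPM against 1.78 ± 0.844, SD, n = 3) and the ciliogenesis factor FOXJ1 (at least 6.70-fold) were also higher in PC9, and ID2, an inhibitor of helix-loop-helix factors, was at least 102-fold higher in A549. Among 5 epithelial markers in the table, ESRP1 (at least 185-fold), EPCAM (196 ± 11.5 against 5.76 ± 1.12 CPM), KRT18 and CDH1 were higher in PC9, and the remaining one, KRT7, was lower there by -0.47 on the log2 scale.

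Markers of differentiated lung cells were mostly low. Of 13 alveolar type 2 markers in the table, 5 could be tested, with 4 higher in PC9 and 1 higher in A549. The shares of all genes were 35.7% and 36.9%, here and for the other marker lists of this comparison. FOLR1 was at least 28.5-fold higher in PC9, and LAMP3 and LPCAT1 were higher there (log2 fold changes of 1.45 and 1.16, adjusted p = 2.53e-04 and 1.41e-15), whereas the lipid transporter ABCA3 was higher in A549 (216 ± 4.23 against 74.7 ± 2.30 CPM). The surfactant genes were at or near the floor. In A549-NEO, SFTPB gave 4, 0 and 8 counts, against 0, 1 and 1 in PC9-NEO. SFTPC had at most 3 counts in A549-NEO, and SFTPA1 had 0 in both groups. Of the airway markers, BPIFB1 (at least 35.6-fold) and MUC5B (log2 fold change 1.95, adjusted p = 7.09e-22) were higher in PC9. Of 19 gut and liver markers, 4 could be tested, and CDH17 (at least 12.2-fold) and AMBP (at least 7.75-fold) were higher in A549 while AGR2 was higher in PC9 (77.1 ± 0.823 against 14.4 ± 3.74 CPM). ALB, AFP, APOC3 and TFF3 had 0 counts in both groups. Of 9 alveolar type 1 markers, 5 were in the table and 2 were tested, with 1 lower in PC9.

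Markers of other cell types gave little signal. Of 6 fibroblast markers, 5 were at the floor in A549-NEO and in PC9-NEO, and COL1A1 was higher in A549 (67.7 ± 1.003 against 24.8 ± 7.06 CPM, SD, n = 3). Their summed level was 67.5 to 69.7 CPM without and 54.2 to 77.6 CPM with HOXC6 in A549, and 19.5 to 33.2 CPM without and 28.8 to 39.6 CPM with HOXC6 in PC9. The leukocyte marker PTPRC had at most 4 counts in the A549 libraries, and the summed level of the 3 leukocyte markers was 8.44 to 13.2 CPM in A549-NEO and 14.6 to 25.2 CPM in A549-HOXC6, nearly all of it from CD68, which is named after its values were seen and rose with HOXC6 in A549 (log2 fold change 0.99, adjusted p = 0.00443). The part of these markers in the results was not tested. The endothelial marker VWF had at most 4 counts in the groups with the empty vector and in A549-HOXC6. Of 4 neuroendocrine markers in the table, NEUROD1 had 0 counts in all 12 libraries, and SYP was higher in A549 (10.1 ± 1.61 against 1.35 ± 1.503 CPM).

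**Figure D2:**
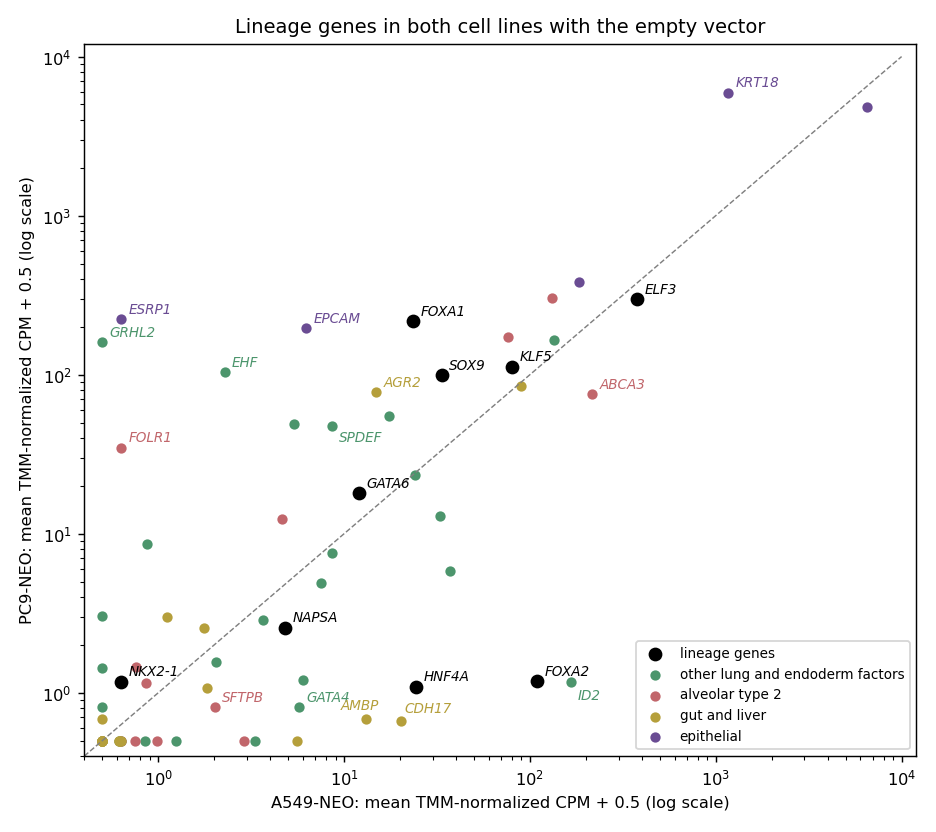
Mean level of the lineage genes and 4 other gene lists in A549-NEO (horizontal axis) and PC9-NEO (vertical axis), as TMM-normalized CPM plus 0.5 on log scales, with 1 point per gene and a dashed line of equal level. FOXA2 and HNF4A lie far below the line, FOXA1 above it together with GRHL2, EHF, ESRP1 and EPCAM, and ELF3, KLF5 and GATA6 near it.

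In A549 cells, HOXC6 was accompanied by higher levels of FOXA1, FOXA2, GATA6, HNF4A and SOX9. The increases were moderate, between 1.56-fold and 1.93-fold, and none exceeded the log2 fold change of 1 that the study used as a threshold, which 1.7% of all genes passed upwards and 5.51% downwards. KLF5, ELF3 and NAPSA did not pass the test, and NKX2-1 was too low to test. Of the 8 lineage genes tested, 5 were higher, against 18.9% of 8771 genes, and 0 were lower, against 20.7% (edgeR's quasi-likelihood test at an adjusted p under 0.05). The median log2 fold change of the 8 genes was 0.65, and that of all genes tested was near 0. After correction for GC content and length the median of the 8 genes was 0.43, with 4 higher and 1 lower.

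HNF4A rose from 24.3, 22.9 and 24.8 CPM in A549-NEO to 51.3, 36.8 and 51.9 CPM in A549-HOXC6. All A549-HOXC6 libraries lay above the A549-NEO libraries, and the log2 fold change was 0.95 (SE 0.17, adjusted p = 1.00e-04). SOX9 rose from 35.7, 31.3 and 32.2 CPM to 74.2, 74.5 and 46.6 CPM (log2 fold change 0.93, SE 0.17, adjusted p = 1.12e-04). The lowest of these is replicate 3, the library that stood apart, and without it the SOX9 change was 1.13 (adjusted p = 6.90e-08).

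FOXA2 rose from 114, 104 and 109 CPM to 159, 169 and 201 CPM (log2 fold change 0.64, SE 0.11, adjusted p = 2.63e-05). FOXA1, far lower than FOXA2 in this line, rose from 17.0, 26.1 and 25.9 CPM to 32.4, 33.4 and 49.2 CPM (log2 fold change 0.70, SE 0.21, adjusted p = 0.00805). Neither pair of groups overlapped, and in both genes replicate 3 was the highest. Without that library the FOXA2 change was 0.55 (adjusted p = 2.36e-05), while the FOXA1 change of 0.49 no longer passed (adjusted p = 0.0686), nor did it without A549-NEO replicate 1 (0.51, adjusted p = 0.0821).

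GATA6 measured 9.37, 12.5 and 12.97 CPM in A549-NEO and 21.8, 16.3 and 16.6 CPM in A549-HOXC6, from 19 to 60 counts per library in the latter. The groups did not overlap, and the log2 fold change was 0.65 (SE 0.26, adjusted p = 0.0448). It passed in 3 of 10 other settings. The call was lost with DESeq2 (adjusted p = 0.175), scaling by library size (0.0654), the GC and length correction (0.179), no filter on low counts (0.0505), the replicate block (0.0589), the block with that correction (0.229) and thinning to equal depth (0.113). It was also lost without 4 of the 6 libraries in turn (A549-NEO replicates 1, 2 and 3 and A549-HOXC6 replicate 1, adjusted p = 0.0589 to 0.257).

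KLF5 varied little within each group, with 79.5, 80.0 and 80.5 CPM in A549-NEO and 91.7, 88.2 and 93.1 CPM in A549-HOXC6. The groups did not overlap, but the log2 fold change of 0.15 (interval from -0.08 to 0.37 at 95%) did not pass (adjusted p = 0.335). ELF3 had 381, 413 and 336 CPM without and 366, 363 and 439 CPM with HOXC6, and the groups overlapped (log2 fold change 0.00, interval from -0.17 to 0.18, adjusted p = 0.973). NAPSA went from 11, 11 and 12 counts to 7, 1 and 10 counts, with overlapping groups (log2 fold change -0.51, interval from -1.498 to 0.48, adjusted p = 0.443).

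In PC9 cells, HOXC6 was accompanied by higher ELF3, SOX9 and GATA6 and by lower FOXA1. The changes ranged from 1.38-fold to 1.59-fold, and 0 passed a log2 fold change of 1, which 0.962% of all genes passed upwards and 3.56% downwards. Of 5 lineage genes tested, 3 were higher, against 13.3% of 8419 genes, and 1 was lower, against 14.2%. Scaled by library size only, 752 genes of the whole table were higher and 1595 lower instead of 1123 and 1193, the median of all genes moved to -0.09, and GATA6 (adjusted p = 0.0515) was no longer called while KLF5 was called lower (log2 fold change -0.28, adjusted p = 0.0492).

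ELF3 rose from 261, 336 and 299.9 CPM in PC9-NEO to 446, 490 and 468 CPM in PC9-HOXC6. The groups were far apart, and the log2 fold change was 0.64 (SE 0.08, adjusted p = 2.02e-07). SOX9 rose from 97.3, 97.7 and 101 CPM to 156, 153 and 130 CPM (log2 fold change 0.55, SE 0.10, adjusted p = 9.11e-05). FOXA1 fell from 205, 230 and 212 CPM to 153, 151 and 162 CPM (log2 fold change -0.46, SE 0.08, adjusted p = 8.61e-05). In SOX9 and FOXA1 every PC9-HOXC6 library lay outside the range of the PC9-NEO libraries, and these 3 genes passed the test without any 1 of the 6 libraries.

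GATA6 measured 20.0, 17.6 and 14.8 CPM in PC9-NEO and 18.8, 27.3 and 34.8 CPM in PC9-HOXC6. The groups overlapped at replicate 1, and the log2 fold change was 0.67 (SE 0.23, adjusted p = 0.0275). It passed in 5 of 10 other settings. The call was lost with DESeq2 (adjusted p = 0.129), library size only (0.0515), the GC and length correction (0.110), the block with that correction (0.0749) and thinning to equal depth (0.276). It was also lost without PC9-HOXC6 replicate 3 (0.38, adjusted p = 0.342), PC9-NEO replicate 2 (adjusted p = 0.0703) or PC9-NEO replicate 3 (adjusted p = 0.117). KLF5 stood at 116, 106 and 113 CPM against 86.8, 116 and 93.9 CPM, with overlapping groups (log2 fold change -0.20, interval from -0.41 to 0.01, adjusted p = 0.177).

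The remaining 4 genes were too low to test in PC9. FOXA2 had 1, 0 and 0 counts and HNF4A had 0 in every PC9-HOXC6 library, so both were at the floor with and without HOXC6. NAPSA gave 4, 3 and 6 counts without HOXC6, against 7, 4 and 5 with it. NKX2-1 gave 3, 3 and 13 counts with HOXC6, against 0, 4 and 0 without it. With no filter on low counts, its log2 fold change was 1.99 with an unadjusted p of 0.0261 and an adjusted p of 0.0953 by edgeR, and the groups overlapped.

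**Figure D3:**
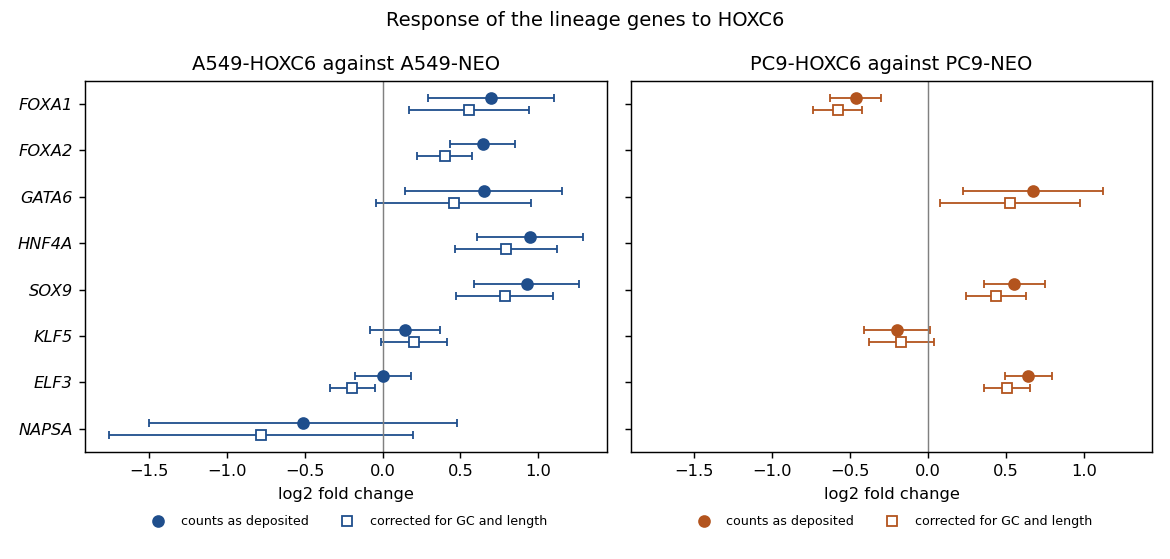
Log2 fold change of each tested lineage gene between HOXC6 and empty vector (horizontal axes) in A549 and PC9, with bars for the 95% interval, for the counts as deposited (filled circles) and after correction for GC content and length (open squares). FOXA1 lies above 0 in A549 (0.70) and below 0 in PC9 (-0.46), and ELF3 at 0.00 in A549 and 0.64 in PC9.

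The fold changes of all genes followed the GC content of their transcripts. Across 8698 genes in A549 and 8349 genes in PC9, Spearman's rho between fold change and GC content was 0.530 and 0.527, and it was 0.00870 in the comparison of the lines. Genes are not independent replicates, and this is a description of the libraries, and the part of GC content in the responses of the lineage genes was tested only through the correction given next. The tested genes had a median GC content of 48.7%, and all lineage genes but KLF5 (45.3%) lie above it, from 50.4% for FOXA1 to 60% for NKX2-1. Genes near the GC content of FOXA2 (59.1%) had a median log2 fold change of 0.23 in A549, and those near HNF4A and GATA6 (both 55%) 0.20. With the GC content and length trends of every library removed, the changes in A549 were 0.79 for HNF4A, 0.78 for SOX9, 0.55 for FOXA1 and 0.40 for FOXA2, and these 4 passed (adjusted p from 1.47e-04 to 0.0267). GATA6 at 0.46 did not (adjusted p = 0.179), and ELF3 at -0.19 was called lower (adjusted p = 0.0380). With the correction 16.2% of all genes were higher in A549 and 14.7% lower. In PC9 the corrected changes were 0.51 for ELF3, 0.44 for SOX9 and -0.58 for FOXA1 (adjusted p from 5.19e-06 to 0.00161), and that of GATA6, 0.53, did not pass (adjusted p = 0.110).

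**Figure D4:**
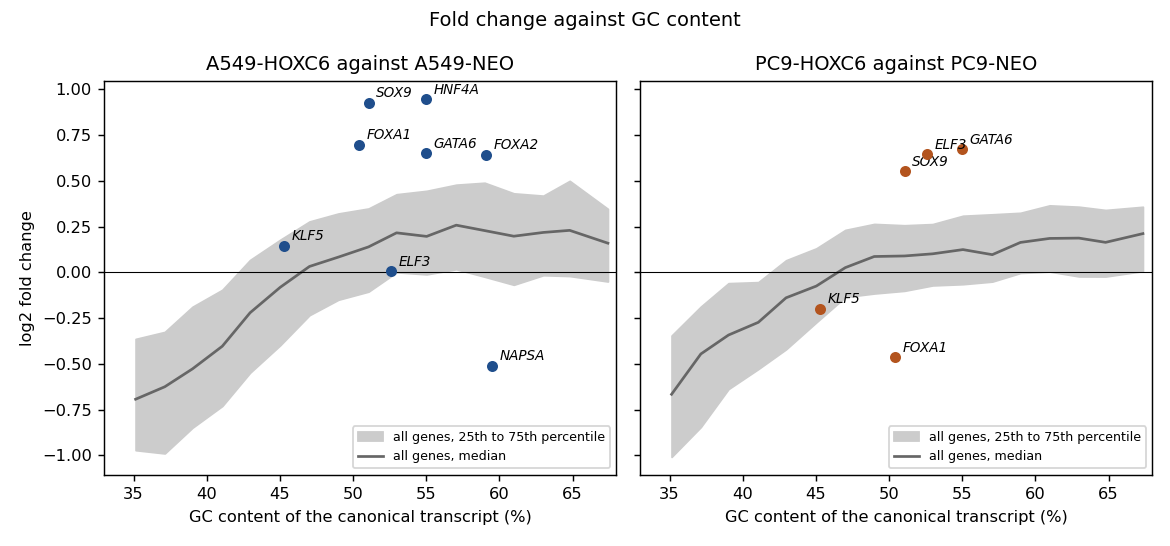
Log2 fold change between HOXC6 and empty vector (vertical axis) against the GC content of the canonical transcript (horizontal axis, percent) in A549 and PC9. The line and band are the median and the 25th to 75th percentile of all genes in bins of GC content, and the points are lineage genes. HNF4A, SOX9, FOXA1, GATA6 and FOXA2 lie above the band in A549, and NAPSA, at -0.51, below it. In PC9, ELF3, GATA6 and SOX9 lie above the band and FOXA1 below it.

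The responses of both lines were then compared directly, as an interaction over the 12 libraries (PC9 minus A549). FOXA1 differed most clearly among the genes counted in both lines, by -1.21 on the log2 scale (SE 0.21, adjusted p = 3.03e-05), as it rose in A549 and fell in PC9. ELF3 differed by 0.59 (SE 0.13, adjusted p = 7.47e-04), with the rise in PC9 set against the value of 0.00 in A549. HNF4A and FOXA2 entered this test through their A549 levels alone, with both PC9 groups at the floor, so they have no measured response in PC9 and their values here (adjusted p = 0.0346 and 0.180) are not read as a difference in response. Of the 5 lineage genes counted in both lines, 1 was higher, against 8.44% of 9229 genes, and 1 was lower, against 10.9%. Past a log2 difference of 1, 0 were higher, against 2.38% of all genes, and 1, FOXA1, was lower, against 2.76%.

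The FOXA1 and ELF3 differences passed without any 1 of the 12 libraries and in all 9 other settings tried, the GC correction among them (-1.12 and 0.70). For SOX9 the difference was -0.41 (interval from -0.80 to -0.03, adjusted p = 0.138), and it passed without A549-HOXC6 replicate 3 (-0.61, adjusted p = 0.00982). For KLF5 it was -0.39 (interval from -0.70 to -0.08, adjusted p = 0.0825), and it passed without PC9-HOXC6 replicate 2 (-0.50, adjusted p = 0.0287). GATA6 gave -0.03 (interval from -0.70 to 0.64, adjusted p = 0.979), an interval too wide to call its responses alike.

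Other lineage genes were read beside these responses. Of the other lung and endoderm factors, 14 could be tested in A549, with 4 higher and 2 lower, where 18.9% and 20.7% of all genes were. In PC9 13 could be tested, with 2 higher and 2 lower, where 13.3% and 14.2% of all genes were, shares near those of the list. The median log2 fold changes of this list were 0.25 and 0.04. In A549 the goblet cell factor SPDEF showed the largest change of the list, from 8.13 ± 1.01 to 25.0 ± 7.39 CPM (SD, n = 3, log2 fold change 1.59, adjusted p = 2.60e-05). AGR2, a disulfide isomerase of mucus-secreting cells, rose in A549 from 14.4 ± 3.74 to 32.0 ± 6.88 CPM (1.14, adjusted p = 2.20e-04). SPDEF and AGR2 are followed into PC9, after their values were seen. There both genes started higher, SPDEF fell by 0.42 on the log2 scale (adjusted p = 0.0459) and AGR2 fell by 0.67 (adjusted p = 2.49e-04). The difference between the lines was -2.07 for SPDEF (adjusted p = 2.34e-06) and -1.86 for AGR2 (adjusted p = 6.21e-07), in the same direction as for FOXA1. In this comparison 0 of 16 other lung and endoderm factors tested were higher and 2 lower, and 0 of 5 gut and liver markers were higher and 1 lower. Other lists went otherwise, with 2 of 5 alveolar type 2 markers higher and 0 lower, and 1 of 5 epithelial markers higher and 2 lower. Of all genes 8.44% were higher and 10.9% lower. The fall of SPDEF in PC9 passed in 8 of 16 alternatives, whereas its rise in A549 passed in all 16 and that of AGR2 in 15 of 16.

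In PC9 the GATA factor GATA5 rose from 4.42 ± 0.862 to 10.5 ± 2.34 CPM (log2 fold change 1.30, adjusted p = 0.00719), and LAMP3, a lysosomal membrane gene of alveolar type 2 cells, rose from 11.8 ± 1.72 to 24.6 ± 2.59 CPM (1.03, adjusted p = 0.00131). Among the factors that passed without exceeding a log2 fold change of 1, named here after their values were seen, were GATA4 (0.997) and HHEX (0.56), higher in A549, NR5A2 (-0.78) and ID2 (-0.32), lower in A549, and in PC9 KLF4 (0.50), higher, and GRHL2 (-0.33), lower. Of these, GATA4, NR5A2 and ID2 in A549 and KLF4 in PC9 did not pass with the GC correction. Without A549-HOXC6 replicate 3 the GATA4 change of 0.94 did not pass either (adjusted p = 0.0586), whereas HHEX, NR5A2 and ID2 did. GATA4 passed in 10 of 16 alternatives.

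The marker lists stand beside shares of all genes of 18.9% higher and 20.7% lower in A549, and 13.3% and 14.2% in PC9. With the GC correction these shares were 16.2% and 14.7% in A549, and 10.8% and 9.44% in PC9. Few genes were tested per list, so the counts are a description only. Of the alveolar type 2 markers, 3 could be tested in A549, with 1 higher and 1 lower, and 5 in PC9, with 4 higher, and with the GC correction 1 was higher in PC9. Of gut and liver markers, 5 could be tested in A549 (2 higher, 1 lower, and 1 and 0 with the GC correction) and 2 in PC9 (1 lower, also with it). Epithelial markers were split in both lines, with 2 higher and 1 lower of 4 in A549 and 1 higher and 1 lower of 5 in PC9. With the GC correction these were 1 and 1 in A549 and 2 and 2 in PC9. Among the airway markers 1 of 1 was higher in A549 and 0 of 2 passed in PC9, where 1 was lower with the GC correction, and among the alveolar type 1 markers 1 of 2 was lower in each line, but with the GC correction 1 was higher and 0 lower in each. Of the fibroblast markers, the 1 tested in each line did not pass. Of the neuroendocrine markers, the 1 tested in A549 did not pass and 0 were tested in PC9, and 0 endothelial markers could be tested in either line.

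**Figure D5:**
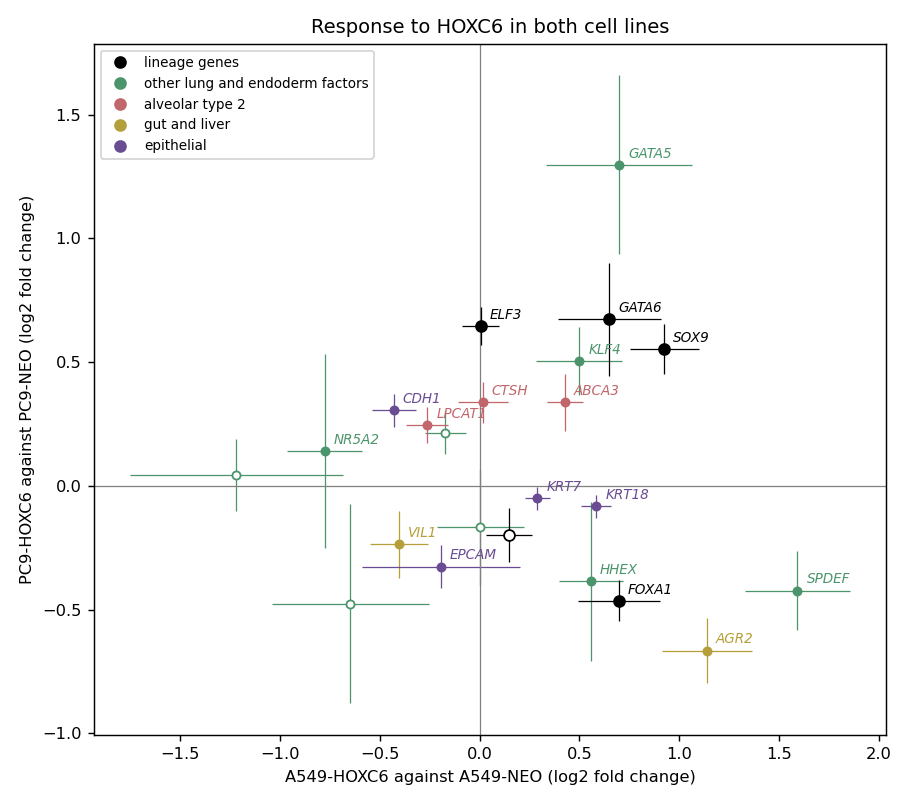
Log2 fold change between HOXC6 and empty vector in A549 (horizontal axis) and PC9 (vertical axis) for genes tested in both lines, with bars of 1 SE. Filled points passed the test in 1 or both lines, and colours give the lists. FOXA1, SPDEF and AGR2 lie to the right of 0 and below it, and SOX9 and GATA6 above 0 on both axes.

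Over the 12 libraries, the pattern of each gene was set beside those of the 9229 genes tested, as the root-mean-square difference of log2 CPM centred on its mean. The nearest genes to FOXA1 were GALNT6 (0.233) and MECOM (0.234), to FOXA2 NNMT (0.256) and ARSL (0.289), and to HNF4A AUTS2 (0.388) and KIF12 (0.390). For SOX9 they were TRAF3IP3 (0.182) and DEGS1 (0.228), for GATA6 PRUNE1 (0.228) and CLCN4 (0.229), and for KLF5 MRPL51 (0.0759) and TRMT5 (0.0860). PADI2 (0.120) was among the nearest to ELF3. Among the lineage genes themselves KLF5 and ELF3 were closest (0.370), FOXA2 was closest to HNF4A (1.099), and FOXA1 and FOXA2 were the farthest apart (4.74). These distances mostly carry the difference between the lines and were not tested.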

How the data were processed

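Poly(A) RNA of the 12 libraries was prepared with a strand-specific kit and sequenced as paired reads. The authors converted reads with bcl2fastq 2.19, aligned them to GRCh37 with HISAT2 2.1.0 and counted them per gene with HTSeq 0.9.1, and the deposited values are raw counts. The annotation release and the strand setting are not given in the sources used here. The table held 12584 complete genes, and 1 incomplete last entry was left out. No gene of the lists found in it had an Ensembl identifier above ENSG00000168878. HOXC6, which the study lists as higher in both lines, was not in it. The table may thus have been cut off, and the effect of this on scaling and shares was not tested.

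Counts were filtered with filterByExpr, scaled by TMM and tested with edgeR 4.0.16 (quasi-likelihood test, R 4.3.3), with Benjamini-Hochberg adjustment over all genes tested and a threshold of 0.05 on the adjusted p. Intervals are at 95%, from the SE. The difference between the responses is an interaction over all 12 libraries. Genes and lists were chosen with earlier results of these data known. All 9 lineage genes are named, and from each other list up to 4 genes per comparison, those of the largest fold change past a log2 fold change of 1, with a mean of at least 1 CPM and groups that do not overlap. Alternatives were DESeq2 1.42.0, RLE factors, library size only, other filters, a correction for GC content and length (mgcv 1.9.3), the replicate number as a block, and each library left out. Thinning to equal depth was chosen after seeing the data. The scripts were tested on simulated data. Some genes and motifs of these lists are counted or searched but not reported here by name or shown in figures.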

Additional observations from a re-analysis of the deposited data

Results flagged for a closer look

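The responses of FOXA1 and ELF3 to HOXC6 differed between PC9 and A549 by the interaction test in edgeR. The difference, PC9 minus A549, was -1.21 on the log2 scale for FOXA1 (adjusted p = 3.03e-05), which was higher with HOXC6 in 3 of 3 A549 libraries and lower in 3 of 3 PC9 libraries. It was 0.59 for ELF3 (adjusted p = 7.47e-04), where 3 of 3 PC9-HOXC6 libraries lay above all PC9-NEO libraries and the A549 groups overlapped. HNF4A also passed that test, with a fitted value of -4.62 (adjusted p = 0.0346), but it had at most 3 counts in each PC9 library, so that no response was measured in PC9 and the value is not a fold change. It did not pass without PC9-NEO replicate 3 (adjusted p = 0.260), without any 1 of the PC9-HOXC6 libraries (0.0544 to 0.105) or when thinned to equal depth (0.137).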

How the results depend on the processing

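Over all lineage genes and alternatives, 405 values kept their direction and side of the threshold, 36 lost the call, 3 gained one and 16 changed sign. The sign changes concern 2 values near 0. ELF3 in A549, 0.00 on the log2 scale, became -0.043 with library size only, -0.0047 without a filter, -0.025 with at least 10 counts in every library, -0.19 with the GC and length correction, with or without the replicate block, and -0.018 when thinned to equal depth. It ranged from -0.073 to 0.074 when 1 library was left out. The GATA6 difference between the responses, -0.03, became 0.012 with DESeq2, 0.018 with RLE factors, 0.051 with the GC correction and 0.030 with the block and that correction, and ranged from -0.32 to 0.18 with 1 library left out.

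Lineage genes called lower in A549 went from 0 to 1 with the GC correction, with or without the block. Those called lower in PC9 went from 1 to 2 with library size only. Those lower between the lines went from 3 to 1 with at least 10 counts in every library, where FOXA2 and HNF4A are not tested, and those lower in the difference of the responses, HNF4A included, from 2 to 1 with that filter and when thinned. With 1 library left out, the genes called higher ranged from 3 to 5 in A549, 2 to 3 in PC9 and 3 to 4 between the lines, and those lower in the difference of the responses from 1 to 3. KLF5 between the lines lost its call when thinned (adjusted p = 0.0553), and so did the HNF4A difference between the responses (adjusted p = 0.137). The causes were not tested.

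Replicate numbers did not pair the libraries. Deviations of same-numbered libraries correlated at -0.0482 to 0.0423, and 2 of 6, 2 of 6 and 1 of 6 libraries correlated best with their own number in A549, in PC9 and between the lines. With the replicate block, 4 lineage genes were higher in A549 and 3 between the lines, without GATA6 (adjusted p = 0.0589 and 0.0668).

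Low counts limit NKX2-1, NAPSA and, in PC9, FOXA2 and HNF4A, which had at most 13 counts per library in the groups concerned. The part of depth, and of the shared exons of NKX2-1 and NAPSA, was not tested.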
